A study of Homo sapiens with 6 samples.

Results

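The serine and one-carbon metabolism genes are 9 genes picked by symbol from the 26255 listed in the RNA-seq table, and all 9 were found and were above the filter on low values. They are PHGDH, PSAT1, PSPH, SHMT1, SHMT2, MTHFD1, MTHFD1L, MTHFD2 and ALDH1L2. The table holds mRNA levels of NCI-H1299 cells, a human lung cancer line, in 3 libraries of cells that carried a control shRNA (shControl) and 3 of cells whose shRNA targeted Ephexin1 (shEphexin1), a guanine nucleotide exchange factor. Both shRNAs were carried on a plasmid that the labels name pSilencer2.1-U6-neo, and the 2 groups share the cell line and the culture medium. The study's methods name the plasmid pSilencer2.1-U6-hygro instead. They describe stable clones grown out under drug selection, so clone and knockdown cannot be told apart. Whether the 3 libraries of a group came from separate cultures is not given in the sources used here, and p-values then measure only the spread between these libraries. Levels are FPKM, fragment counts scaled to transcript length and library size, which can be set side by side between genes. The table holds no counts, so the read depth behind each value is unknown.

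Serine synthesis branches from glycolysis and runs through PHGDH, PSAT1 and PSPH, and the product serine gives a carbon unit to folate when the SHMT enzymes turn it into glycine. The carbon unit is then carried through a mitochondrial arm (SHMT2, MTHFD2, MTHFD1L, ALDH1L2) and a cytosolic arm (SHMT1, MTHFD1), and is used to build purines, thymidylate and methionine. Many of these genes are textbook targets of ATF4, the transcription factor of the amino acid stress response, and the pathway is highly expressed in many tumours.

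PSAT1 mRNA in Ephexin1-depleted cells was at 48.4% of its control level, and the mRNAs of PHGDH, SHMT2 and MTHFD2 were at 61.5%, 62.6% and 73.0% of theirs. MTHFD1, the cytosolic trifunctional enzyme, was at 99.2%. PSAT1 alone among the 9 genes passed an adjusted p of 0.025 with all 6 libraries (limma on log2-transformed FPKM, Benjamini-Hochberg adjustment over the 16020 genes tested), and it also passed the fold threshold of 2. Of all genes tested, 2.15% passed this adjusted p with a lower level and 1.25% with a higher level, and 1.89% passed both thresholds in either direction. The groups did not overlap for 5 of the 9 genes, each lower in shEphexin1, against 15.4% of all genes tested. The median log2 fold change was -0.27 over the 9 genes and -0.0093 over all genes tested. In bulk RNA, a lower level in every cell and a lower number of expressing cells cannot be told apart.

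Replicate 2 of both groups stood apart from replicates 1 and 3 in its trend with GC content, so the main comparisons are also given without it. The choice rests on the values of these libraries and leaves 2 libraries against 2. Spearman's rho between the GC content of a transcript and how far a library lay from the mean of its group was -0.69 and -0.76 in replicate 2 and 0.34 to 0.66 in the other libraries. Replicate 3 lay on the other side, at 0.64 in shControl and 0.66 in shEphexin1. These correlations run over 15204 genes of 1 library each, and genes do not replicate a library. The targeted gene NGEF, which encodes Ephexin1, was at 13.3, 11.7 and 16.4 FPKM under shControl, against 9.81, 8.25 and 10.5 FPKM under shEphexin1 (log2 fold change -0.53, adjusted p = 0.103 from limma, and 0.0261 with replicates 1 and 3 alone). The study checked the knockdown in its stable H1299 cells by western blot, which measures protein and not the mRNA given here. Of the cell markers examined, VIM was above 1979 FPKM in all 6 libraries and KRT18 between 36.3 and 109 FPKM. KRT8 was lower, between 2.65 and 8.44 FPKM, while PTPRC, a leukocyte marker, was listed at 0 in all 6 libraries. PECAM1, SFTPC, COL1A1 and COL3A1, markers of endothelium, alveolar cells and fibroblasts, were at most 0.386 FPKM, the highest being COL1A1 (0.0813 to 0.124 FPKM in shControl and 0.169 to 0.386 in shEphexin1). KRT8 was at 46.1% of its control level (adjusted p = 0.0304 from limma) and KRT18 at 52.0% of its own (adjusted p = 0.0439). The part of these markers in the results was not tested.

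**Figure D1:**
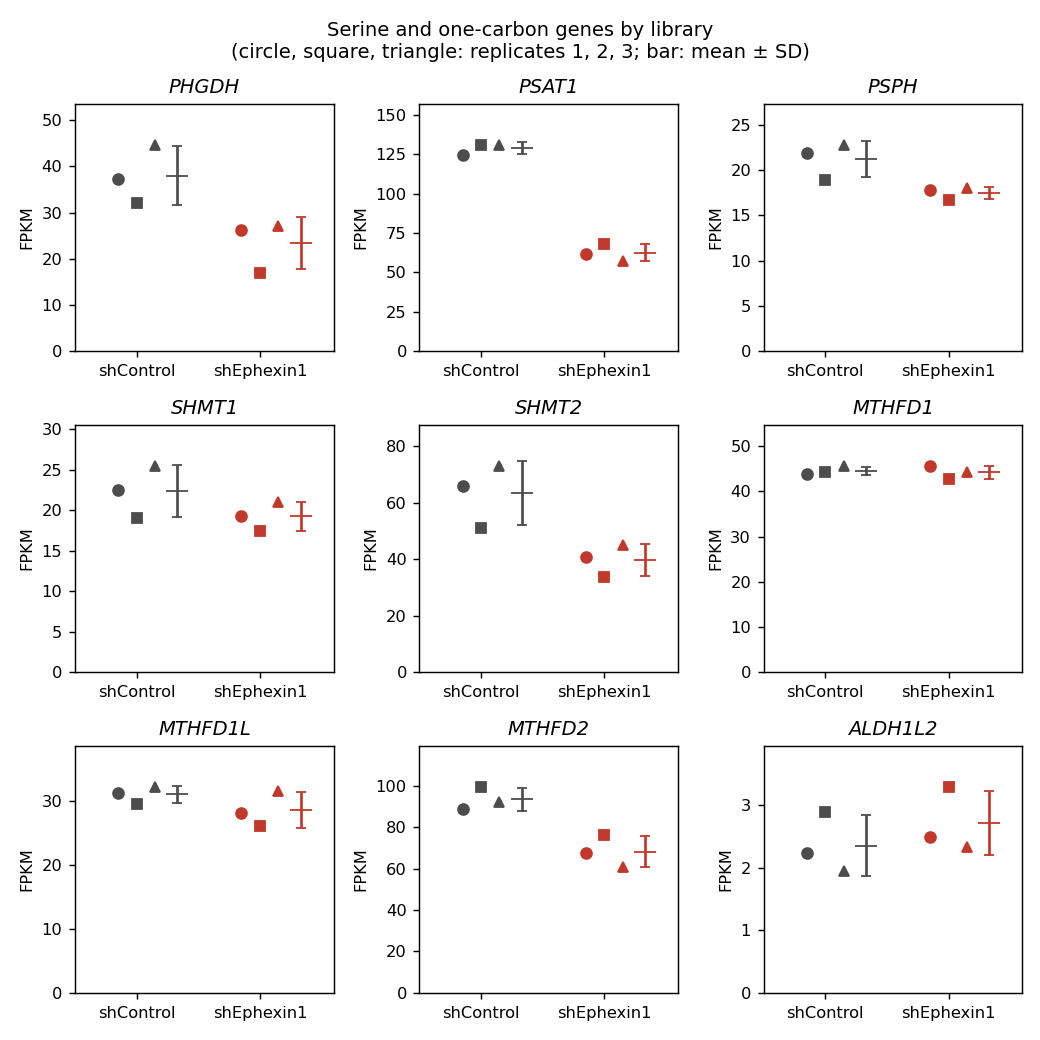
FPKM (y axis, from 0) of the 9 genes in each of the 3 shControl and 3 shEphexin1 libraries, with the mean and SD of each group beside the points. PSAT1 is between 57.3 and 68.0 FPKM in shEphexin1 and between 125 and 131 FPKM in shControl, while the groups overlap for MTHFD1, MTHFD1L, SHMT1 and ALDH1L2.

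Of the 3 enzymes that make serine, PHGDH comes first and oxidizes 3-phosphoglycerate. PHGDH (GRCh37, chromosome 1, 120191034 to 120286841) was at 37.4, 32.03 and 44.7 FPKM in the controls, against 26.2, 16.9 and 27.0 FPKM after knockdown. Every shEphexin1 library was below every shControl library, and replicate 2 was the lowest of each group. The log2 fold change was -0.72 (standard error 0.211, 95% interval -1.21 to -0.23), with an adjusted p of 0.0905. With replicates 1 and 3 alone it was -0.62 (standard error 0.105) and the adjusted p was 0.00926.

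PSAT1, the transaminase of the second step, lies on chromosome 9 from 80912041 to 80945009. It was at 125, 131 and 131 FPKM under shControl, against 61.8, 68.0 and 57.3 FPKM under shEphexin1, or 129 ± 3.74 against 62.4 ± 5.41 FPKM (SD, n = 3 in each group). The gap between the groups was wider than the spread within either. PSAT1 fell by 1.05 on the log2 scale (standard error 0.101, adjusted p = 0.00283), and the log2 fold change was -1.10 with replicates 1 and 3 alone (adjusted p = 0.000862). Without shControl replicate 1 the adjusted p was 0.0374 and without shEphexin1 replicate 1 it was 0.0282, both over the threshold, and without shEphexin1 replicate 3 the log2 fold change was -0.99, under the fold threshold. Quantile normalization and a correction for GC content and transcript length also left it under that threshold, at -0.93 and -0.99. GENCODE names 4 pseudogenes of PSAT1, and how the authors assigned reads shared with such copies is not given in the sources used here.

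PSPH, the phosphatase that completes serine, lies on chromosome 7 from 56078744 to 56119297. Its values were 21.9, 18.9 and 22.8 FPKM under shControl, against 17.8, 16.7 and 18.0 FPKM under shEphexin1. The groups did not overlap, though the lowest control (18.9 FPKM) and the highest knockdown library (18.0 FPKM) lay close, and the adjusted p was 0.209 (log2 fold change -0.27, standard error 0.115). Replicates 1 and 3 alone gave -0.32 and an adjusted p of 0.0454. With a term for replicate 2 or a correction for GC content and transcript length, PSPH passed the threshold (adjusted p = 0.0182 and 0.0164 from limma), in fits where 21.7% and 23.1% of all genes did so. PSPHP1, a copy of part of the gene, is not listed in the table, so a share of its reads in the PSPH values was not tested.

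The SHMT enzymes take the carbon unit from serine, SHMT2 in mitochondria and SHMT1 in the cytosol. SHMT2 (chromosome 12, 57623356 to 57628718) was at 66.0, 51.1 and 73.0 FPKM under shControl, against 40.6, 33.6 and 44.9 FPKM under shEphexin1. All shEphexin1 libraries were below all shControl libraries, and replicate 2 was again the lowest of each group. The log2 fold change was -0.67 (standard error 0.169, 95% interval -1.06 to -0.27, adjusted p = 0.0595). Replicates 1 and 3 alone gave -0.70 (standard error 0.0929, adjusted p = 0.00406). SHMT1 (chromosome 17, 18231174 to 18266877) was at 22.6, 19.0 and 25.5 FPKM against 19.2, 17.4 and 21.1 FPKM. The groups of SHMT1 overlapped, and its log2 fold change of -0.21 had a 95% interval of -0.54 to 0.12 (adjusted p = 0.437, and 0.133 with replicates 1 and 3 alone).

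Of the enzymes that interconvert folate-bound carbon units, MTHFD2 is the mitochondrial dehydrogenase and cyclohydrolase. MTHFD2 (chromosome 2, 74413299 to 74444692) was at 88.6, 99.5 and 91.9 FPKM under shControl, against 67.5, 76.0 and 61.0 FPKM under shEphexin1, with no overlap. In contrast to PHGDH and SHMT2, replicate 2 was the highest of each group. The log2 fold change was -0.46 (standard error 0.114, 95% interval -0.72 to -0.19, adjusted p = 0.0582), and with replicates 1 and 3 alone it was -0.49 (adjusted p = 0.00927). GENCODE names 7 pseudogenes of MTHFD2, of which MTHFD2P1 is listed, at no more than 0.0353 FPKM.

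MTHFD1L, the mitochondrial formate-releasing synthetase (chromosome 6, 151186815 to 151423023), was at 31.2, 29.5 and 32.2 FPKM under shControl, against 28.0, 26.0 and 31.5 FPKM under shEphexin1. Only shEphexin1 replicate 3 reached the range of the controls, and the log2 fold change was -0.12 (95% interval -0.38 to 0.14, adjusted p = 0.575, and 0.526 with replicates 1 and 3 alone). MTHFD1, the cytosolic enzyme that joins dehydrogenase, cyclohydrolase and synthetase activities in 1 protein (chromosome 14, 64854749 to 64930175), was at 43.9, 44.3 and 45.6 FPKM against 45.7, 42.8 and 44.3 FPKM. Its levels had the smallest spread of the 9 genes in shControl relative to the mean, 44.6 ± 0.928 FPKM (SD, n = 3). The log2 fold change of -0.011 had a 95% interval of -0.22 to 0.20 and changed sign with replicates 1 and 3 alone (0.0076) and with quantile normalization (0.072).

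ALDH1L2, the mitochondrial 10-formyltetrahydrofolate dehydrogenase (chromosome 12, 105413562 to 105501421), was the lowest of the 9 genes. It was at 2.23, 2.90 and 1.94 FPKM under shControl, against 2.50, 3.29 and 2.34 FPKM under shEphexin1. The groups overlapped, and ALDH1L2 had the only positive log2 fold change of the set with all 6 libraries, 0.20 (95% interval -0.30 to 0.69, adjusted p = 0.636). The cytosolic counterpart ALDH1L1 was listed at 0 in all 6 libraries, so no ratio between them was taken.

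With replicate 2 left out of both groups, 4 of the 9 genes passed an adjusted p of 0.025, namely PSAT1, PHGDH, SHMT2 and MTHFD2, each with a lower level. The whole table also gave more calls in this comparison, 7.53% of genes with a lower and 4.81% with a higher level in shEphexin1. When any single library was dropped, PHGDH, SHMT2 and MTHFD2 stayed over an adjusted p of 0.025. Their lowest adjusted p from limma in those fits was 0.0907, 0.0428 and 0.0311. PHGDH, SHMT1, SHMT2, PSPH and MTHFD1L, whose longest transcripts have a GC content of 49.8% to 57.0%, were lowest in replicate 2 of both groups. MTHFD2 and ALDH1L2, at 42.2% and 41.6%, were highest in replicate 2 of both groups, and PSAT1, at 42.5%, was highest there in shEphexin1. The part of GC content in these deviations was not tested gene by gene.

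**Figure D2:**
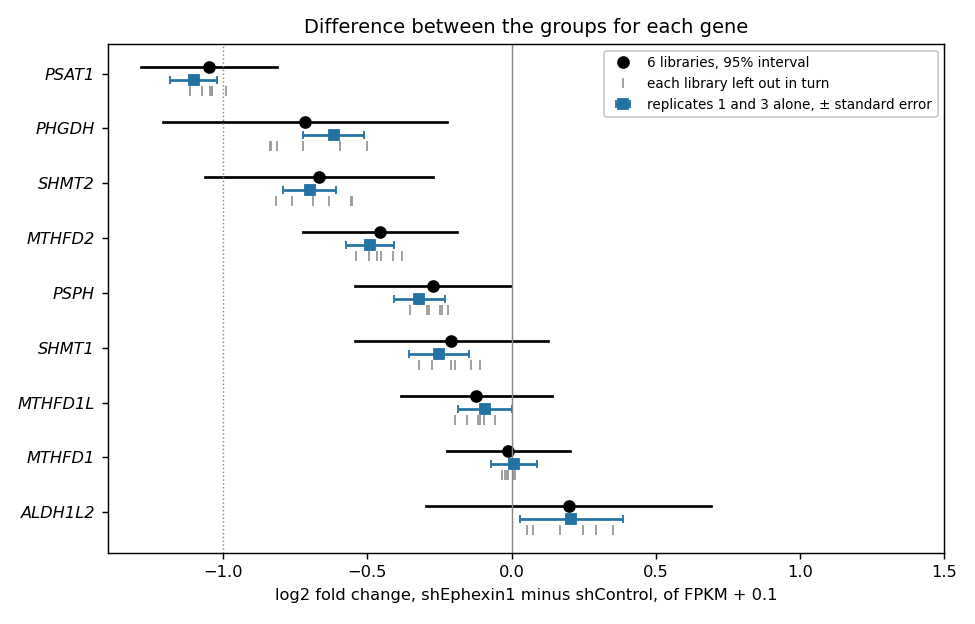
Log2 fold change (x axis, shEphexin1 minus shControl, of FPKM + 0.1) of each gene with all 6 libraries and its 95% interval, with replicates 1 and 3 alone and its standard error, and with each library left out in turn. PSAT1 lies near the dotted line that marks a fold of 2, and the interval of MTHFD1 runs from -0.22 to 0.20.

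Ranked by mean level in shControl, the order was PSAT1 (129 FPKM), MTHFD2 (93.4), SHMT2 (63.4), MTHFD1 (44.6), PHGDH (38.0), MTHFD1L (31.0), SHMT1 (22.4), PSPH (21.2) and ALDH1L2 (2.36). The ranges of neighbours overlapped between MTHFD1 and PHGDH, between PHGDH and MTHFD1L, and between SHMT1 and PSPH. In shEphexin1, MTHFD2 (68.2 FPKM) stood above PSAT1 (62.4) and MTHFD1 (44.2) above SHMT2 (39.7), although the ranges overlapped within each of these pairs. Within a library, the FPKM of PSAT1 was 1.41, 1.32 and 1.43 times that of MTHFD2 in shControl and 0.915, 0.895 and 0.939 times in shEphexin1. The order of these genes was thus the opposite in all 3 libraries of each group. This pair was chosen after its values were seen and was given no test.

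The mRNA levels of mitochondrial and cytosolic enzymes were set against each other as ratios of FPKM within each library. Such ratios do not measure how much carbon runs through either arm. The ratio of SHMT2 to SHMT1 was 2.93, 2.69 and 2.87 in shControl and 2.11, 1.93 and 2.13 in shEphexin1, and the ratio of MTHFD2 to MTHFD1 was 2.02, 2.25 and 2.01 against 1.48, 1.78 and 1.38. Both ratios were lower in every shEphexin1 library than in every shControl library. On the log2 scale they differed by -0.46 and -0.45 (two-sided exact permutation test, p = 0.1 each, the smallest p that 3 libraries against 3 can give, adjusted p = 0.15 over 3 ratios). MTHFD1L to MTHFD1, at 0.712, 0.667 and 0.705 against 0.613, 0.608 and 0.712, overlapped between the groups (difference -0.11, exact permutation p = 0.4). With replicates 1 and 3 alone the 3 differences were -0.45, -0.50 and -0.10.

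**Figure D3:**
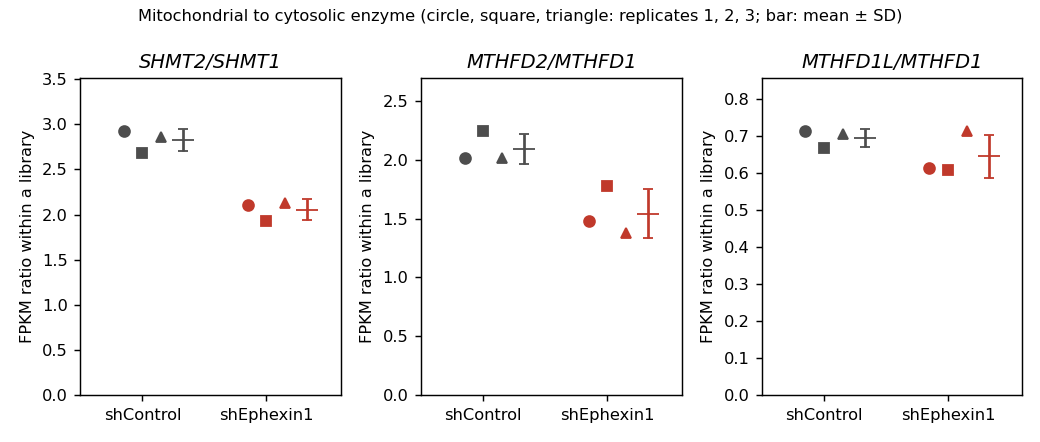
Ratio of the FPKM of a mitochondrial to that of a cytosolic enzyme (y axis, from 0) in each of the 3 shControl and 3 shEphexin1 libraries, with the mean and SD of each group. SHMT2/SHMT1 is at 2.83 ± 0.124 in shControl and 2.06 ± 0.111 in shEphexin1, and MTHFD1L/MTHFD1 overlaps between the groups.

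Promoter sequences were at hand for 6 of the 9 genes, from the RefSeq table on GRCh38.p14, and the 250 bases before the start of the transcript were searched. The windows of PSAT1, PHGDH and MTHFD2, whose mRNAs were lower, are shown with that of MTHFD1, which was at 99.2% of its control. Each is on the plus strand and is written from 5′ to 3′, with every CCAAT (or ATTGG, its form on the other strand), the motif of the factor NF-Y, in capitals. The windows lie at chr9:78296875-78297124 (PSAT1), chr1:119711684-119711933 (PHGDH), chr2:74198365-74198614 (MTHFD2) and chr14:64388103-64388352 (MTHFD1).
PSAT1: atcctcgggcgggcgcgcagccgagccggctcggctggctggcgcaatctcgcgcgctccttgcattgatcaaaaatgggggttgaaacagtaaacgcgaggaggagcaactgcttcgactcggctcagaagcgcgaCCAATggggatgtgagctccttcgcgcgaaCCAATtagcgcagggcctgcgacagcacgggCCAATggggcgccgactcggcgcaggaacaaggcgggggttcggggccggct
PHGDH: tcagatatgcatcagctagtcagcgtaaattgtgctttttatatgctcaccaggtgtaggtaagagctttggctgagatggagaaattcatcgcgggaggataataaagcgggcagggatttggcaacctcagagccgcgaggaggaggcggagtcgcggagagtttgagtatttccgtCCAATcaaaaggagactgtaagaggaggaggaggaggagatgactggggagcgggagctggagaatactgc
MTHFD2: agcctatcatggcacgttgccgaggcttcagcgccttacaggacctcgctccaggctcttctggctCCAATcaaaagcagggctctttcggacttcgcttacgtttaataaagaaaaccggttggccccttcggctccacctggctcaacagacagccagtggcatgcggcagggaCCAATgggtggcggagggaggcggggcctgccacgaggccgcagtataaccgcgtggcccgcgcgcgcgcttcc
MTHFD1: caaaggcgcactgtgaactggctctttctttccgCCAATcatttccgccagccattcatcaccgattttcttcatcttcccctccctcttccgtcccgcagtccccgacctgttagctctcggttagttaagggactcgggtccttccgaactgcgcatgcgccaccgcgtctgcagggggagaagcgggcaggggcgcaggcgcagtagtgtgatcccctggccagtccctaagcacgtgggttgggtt

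CCAAT was present in all 6 windows, with 3 matches in PSAT1, 2 each in MTHFD2 and SHMT1, and 1 each in PHGDH, MTHFD1 and MTHFD1L. Among the windows of 11327 tested genes, 34.7% held at least 1 match. The motif was chosen after the sequences were seen, so its count in these windows cannot be tested against that share. The part of the motif in the mRNA levels was not tested. TGATGNAA, the core of the composite element that ATF4 binds with C/EBP factors, was found on either strand in MTHFD1L alone of the 6, against 1.6% of the windows of tested genes. CACGTG, the E-box bound by MYC, was found in MTHFD1 and MTHFD1L, against 8.6%. Sites further away were not searched.

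The rest of the pathway was examined as 47 genes, listed by role with earlier results of these data known. Of the 47, 43 passed the filter on low values. Of these, 2 passed an adjusted p of 0.025, both with a lower level (2.15% of all genes tested passed in this direction). These were GLDC, the decarboxylase of the glycine cleavage system, and GGH, which trims the glutamate tail of folates. The groups did not overlap for 16 genes that were lower and for 2 that were higher, where 15.4% and 12.8% of all genes did so. Of the 43 genes, 31 had a negative and 12 a positive log2 fold change (30 and 13 with median centring), with a median of -0.18. Among all 16020 genes tested, 8185 had a negative and 7835 a positive log2 fold change. With replicates 1 and 3 alone, 5 genes passed with a lower and 2 with a higher level, beside the 7.53% and 4.81% of all genes given above. In fits with 5 libraries, the count of 2 became 0 when replicate 1 or replicate 3 of either group was dropped, 1 when shControl replicate 2 was dropped, and 3 when shEphexin1 replicate 2 was dropped. Calls over all genes moved in the same fits, from 3.41% with all 6 libraries to between 0.235% and 0.749%, to 1.22% and to 3.70%, respectively.

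The glycine cleavage system breaks glycine down in mitochondria and hands its carbon to folate. GLDC was at 24.9, 25.2 and 26.1 FPKM under shControl, against 14.4, 12.9 and 14.3 FPKM under shEphexin1, and fell by 0.87 on the log2 scale (standard error 0.104, adjusted p = 0.00616). GCSH, the lipoyl carrier protein of the same system, was at 28.2, 33.6 and 29.2 against 17.9, 23.3 and 17.3 FPKM (log2 fold change -0.64, adjusted p = 0.0439, and 0.00350 with replicates 1 and 3 alone). The shEphexin1 libraries of both genes were below all controls. DLD, a subunit shared with the pyruvate dehydrogenase complex and named here after its values were seen, lay in the other direction, at 20.3, 22.3 and 18.1 against 29.2, 34.4 and 25.3 FPKM (log2 fold change 0.54, adjusted p = 0.0725, and 0.0205 with replicates 1 and 3 alone). AMT, the aminomethyltransferase, averaged 1.71 ± 0.240 FPKM in the controls and 1.81 ± 0.358 FPKM after knockdown (SD, n = 3 each).

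Among 7 tested genes of folate uptake, reduction and retention, GGH was at 122, 117 and 120 FPKM under shControl, against 83.1, 84.6 and 73.9 FPKM under shEphexin1. It fell by 0.58 on the log2 scale (standard error 0.0965, adjusted p = 0.0186), and the log2 fold change was -0.63 with replicates 1 and 3 alone. FOLR1, a folate receptor, was listed at 0 in all 6 libraries. Of the 8 other folate enzymes tested, TYMS, which makes thymidylate, and MTFMT, which formylates the mitochondrial initiator tRNA, had the lowest p. Their log2 fold changes were -0.35 (adjusted p = 0.0992) and -0.36 (adjusted p = 0.178).

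In the methionine cycle, with 9 genes tested, AHCY, which splits S-adenosylhomocysteine, was at 141, 111 and 152 FPKM under shControl, against 95.3, 78.2 and 97.4 FPKM under shEphexin1. Its groups did not overlap, and its log2 fold change was -0.57 (adjusted p = 0.0669, and 0.00383 with replicates 1 and 3 alone). AHCYL2, a relative of AHCY, was at 8.48, 7.78 and 7.49 against 11.4, 11.8 and 10.0 FPKM (log2 fold change 0.48, adjusted p = 0.0636), with no overlap. In transsulfuration and serine breakdown, SDSL, a serine dehydratase relative, had a log2 fold change of 0.66 (adjusted p = 0.191, and 0.0183 with replicates 1 and 3 alone) and CBS, which joins serine to homocysteine, one of -0.32 (adjusted p = 0.347). None of the 5 genes of serine transport passed the adjusted p of 0.025 in limma, and 3 were at an unadjusted p of at most 0.05, each with a lower level. Over the whole table, 2056 of the 16020 genes tested were at this unadjusted p with a lower level. SFXN1, the mitochondrial serine carrier, was at 40.9, 41.7 and 41.4 against 33.6, 34.1 and 28.5 FPKM (log2 fold change -0.37, adjusted p = 0.0893), and SFXN2 had a log2 fold change of -0.66 (adjusted p = 0.0619). Among 5 genes that use serine for lipids, SPTLC3, a subunit of serine palmitoyltransferase, was at 1.18, 1.13 and 1.46 against 0.529, 0.762 and 0.406 FPKM (log2 fold change -1.06, adjusted p = 0.0525, and 0.0181 with replicates 1 and 3 alone), and SPTLC1 had a log2 fold change of -0.20 (adjusted p = 0.373).

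Because ATF4 drives many serine and mitochondrial folate genes in the textbook account, ATF4 and 15 of its known targets and partners were read as a list of 16. The list was chosen with earlier results of these data known, so its counts below describe it and do not test it. All 16 passed the filter and had negative log2 fold changes, also with median centring and quantile normalization, with a median of -0.57. A negative log2 fold change was found for 8185 of the 16020 genes tested. Of the 16, 4 passed an adjusted p of 0.025 with all 6 libraries and 8 with replicates 1 and 3 alone, against 2.15% and 7.53% of all genes with a lower level. For 11 of the list, every shEphexin1 library was below every control, against 15.4% of all genes. ASNS, asparagine synthetase, was at 121, 128 and 129 FPKM under shControl, against 77.3, 80.1 and 70.0 FPKM under shEphexin1 (log2 fold change -0.73, adjusted p = 0.00830). TRIB3, a pseudokinase that restrains ATF4, had a log2 fold change of -1.21 (adjusted p = 0.0112), CHAC1, which degrades glutathione, one of -1.37 (adjusted p = 0.0209) and DDIT4, an inhibitor of mTOR signalling, one of -1.25 (adjusted p = 0.0245). ATF4 itself, given because the list is named for it, was at 187, 185 and 202 against 134, 124 and 146 FPKM (log2 fold change -0.51, adjusted p = 0.0312, and 0.00977 with replicates 1 and 3 alone). The count of 4 became 0 when replicate 1 or replicate 3 of either group was dropped, 1 when shControl replicate 2 was dropped, and 3 when shEphexin1 replicate 2 was dropped, in the same fits in which the share of all genes called moved as given above.

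**Figure D4:**
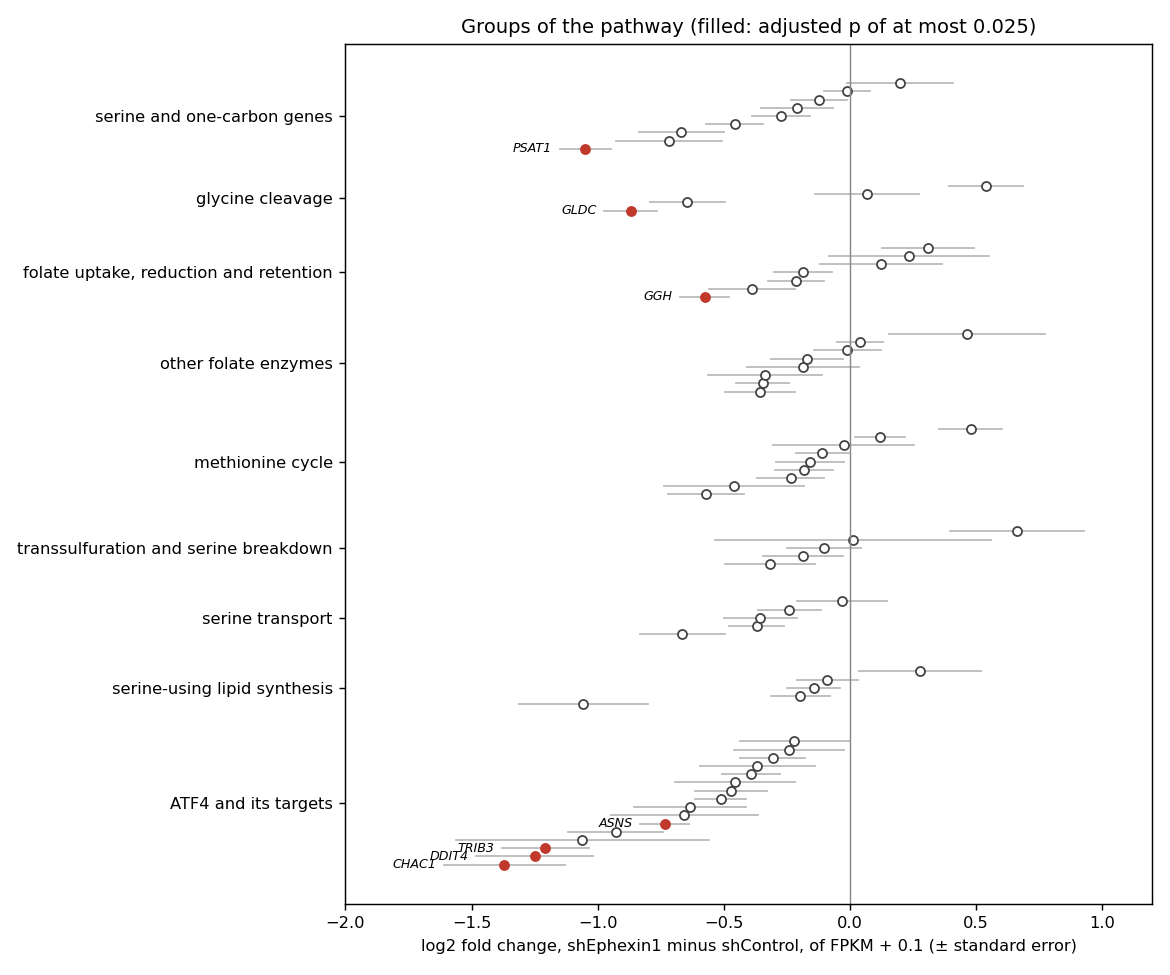
Log2 fold change (x axis, shEphexin1 minus shControl, of FPKM + 0.1) and standard error of each tested gene, by role in the pathway, with filled points for an adjusted p of at most 0.025. The filled points are PSAT1, GLDC, GGH and, in the ATF4 list, ASNS, TRIB3, CHAC1 and DDIT4, and all 16 points of the ATF4 list lie below 0.

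To place the shape of single profiles in the table, each gene with a mean of at least 1 FPKM was compared with PHGDH and MTHFD2 by the distance between log2 profiles over the 6 libraries, each centred on its own mean (12638 genes, no test). Nearest to PHGDH were MARCKSL1, TMEM183B and NINJ1, at distances of 0.113, 0.130 and 0.132. MARCKSL1 was at 21.7, 17.1 and 25.8 FPKM under shControl, against 14.6, 9.56 and 15.8 FPKM under shEphexin1, lowest in replicate 2 of each group like PHGDH. Nearest to MTHFD2 were CTNNAL1, FBXO4 and WDR11, at 0.0577, 0.0789 and 0.0847. CTNNAL1 was at 67.1, 76.9 and 71.1 FPKM against 50.7, 57.7 and 48.0 FPKM, highest in replicate 2 of each group like MTHFD2.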

How the data were processed

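RNA-seq was analysed in 6 H1299 libraries, 3 shControl and 3 shEphexin1, grouped by their titles. The authors mapped reads to GRCh37/hg19 with TopHat 2.0.13 and deposited FPKM per gene and library from Cuffdiff 2.2.1, with geometric library normalization and pooled dispersion. The gene annotation is not given in the sources used here. All value columns were used. FPKM hold no read counts, so the depth of a library is unknown.

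The 16020 genes that reached 0.1 FPKM in 3 or more libraries (10235 did not) entered the comparison on the scale log2(FPKM + 0.1). The model was fitted in limma 3.58.1 (R 4.3.3) by lmFit and by eBayes using a mean-variance trend, and p-values were adjusted by Benjamini and Hochberg's method across every gene tested. Fold changes are on this log2 scale, which understates those of low genes. Thresholds were an adjusted p of 0.025 and a fold of 2, those of the study. The fit was checked on simulated data with independent noise for each gene and library. That check lacks the shared deviation of replicate 2 and does not cover it. Alternatives were other pseudocounts, filters and scalings, eBayes settings, thresholds, replicate blocking, a term for replicate 2, replicate 2 left out, a loess correction for GC content and transcript length, and each library left out. Gene positions, transcript length and GC content came from GENCODE release 44 on GRCh37, with the longest transcript of a gene, and promoters from RefSeq on GRCh38.p14.

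The 9 genes, the lists and the rule for naming genes were chosen with earlier results of these data known. In each role group the 2 genes with the lowest p are named (1 of those in the folate uptake group is not reported here), and in the ATF4 list those past the adjusted p. Figures were drawn with matplotlib 3.10.9 in Python 3.11.15.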

Additional observations from a re-analysis of the deposited data

How the results depend on the processing

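The share of all genes past an adjusted p of 0.025 was 3.41% with all libraries and 12.3% with replicates 1 and 3 alone. It was 21.7% with a term for replicate 2 of both groups and 23.1% with the loess correction. With the replicate block it was 25.7%, and with the loess correction and the block 29.2%. It ranged from 0.235% to 3.70% when single libraries were dropped, so the counts below are to be read against these shares. Among the 9 genes, each of the others kept its direction under every alternative run, while MTHFD1 changed sign with quantile normalization (log2 fold change 0.072), with replicates 1 and 3 alone (0.0076), with the loess correction for GC content and length, alone or with the replicate block (0.00045), and ranged from -0.035 to 0.012 when single libraries were dropped. The number of the 9 genes past an adjusted p of 0.025, which was 1 with all libraries, was 4 with replicates 1 and 3 alone. It was 5 with the replicate block, with the term for replicate 2 and with the loess correction, and 6 with the loess correction and the block. The fifth gene was PSPH (adjusted p = 0.0141 with the block) and the sixth SHMT1 (0.0205). The number that also passed the fold of 2, again 1, was 0 with quantile normalization and with both loess corrections, where PSAT1 changed by less than 2-fold (log2 fold change -0.93 and -0.99). For the other pathway genes the number past the adjusted p, 2 with all libraries, was 1 with quantile normalization and with eBayes without trend. It was 7 with replicates 1 and 3 alone and 12 with the loess correction. It was 13 with the replicate block and with the term for replicate 2, and 14 with the loess correction and the block. For the ATF4 list, 4 with all libraries became 2 without a filter and with eBayes without trend, and 8 with replicates 1 and 3 alone. It became 13 with the term for replicate 2 and with the loess correction, and 14 with the replicate block, alone or with the loess correction. When single libraries were dropped, these counts ranged from 0 to 1 for the 9 genes by either rule, and from 0 to 3 for both other lists. The 3 ratios kept their direction under every alternative run on them. These were other pseudocounts, replicates 1 and 3 alone, each library left out, and median centring, which cannot change a ratio within a library. Quantile normalization, the loess correction and the replicate block were not run on the ratios.

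The replicate numbers were not taken to pair the libraries, because a pairing is not given in the sources used here. The correlation of deviations from the group means was 0.0914, 0.43 and 0.328 for replicates 1, 2 and 3. Each library correlated best with its own number, which is a hint from the data and not from the design. For replicate 1 the hint is weak, as shEphexin1 replicate 1 correlated nearly as well with shControl replicate 3 (0.0887). The replicate block raised the number of all genes past the adjusted p from 546 to 4123. Causes of these differences were not tested. Without read counts, the counting error of low genes such as ALDH1L2 cannot be given.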
